A study of Drosophila melanogaster with 12 samples.

Results

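Eye discs that overexpressed the transcription factor dE2F1 and its partner dDP were compared with eye discs that overexpressed the same pair together with the microRNA miR-11. The samples were chosen by their labelled genotype, which gave 6 of the 12 arrays of the study, 3 of each genotype. The dE2F1/dDP discs were GMR-Gal4/+; UAS-dE2F1,UAS-dDP/+. The discs with all 3 transgenes carried UAS-dE2F1,UAS-dDP/+ as well, now with GMR-Gal4/UAS-miR-11. The remaining arrays, which served as reference, were 3 driver controls (GMR-Gal4/+) and 3 of miR-11 alone (GMR-Gal4/UAS-miR-11). All 12 samples were Drosophila melanogaster eye discs of the third larval instar, from larvae kept at 25 °C, hybridised to Affymetrix arrays from 100 ng of total RNA, and all carried the GMR-Gal4 driver. In the eye disc, GMR drives Gal4 in the cells behind the morphogenetic furrow. Each array thus mixed these cells with others in which the transgenes need not be expressed. The dE2F1/dDP discs carried no other UAS transgene in place of UAS-miR-11. The chromosome with UAS-miR-11 stood where they had a + chromosome. An effect of miR-11 and a difference between these chromosomes therefore cannot be told apart in this comparison. The labels call the 3 replicates of a genotype biological and do not say whether they came from separate crosses, and the p-values below measure the spread between them.

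E2F transcription factors bind DNA as a dimer with a DP protein and switch on the genes of S phase entry, DNA replication and mitosis, and Rb family proteins hold them back. In Drosophila, dE2F1 also drives cell death genes such as reaper and hid, and its overexpression behind the furrow is known to cause extra S phases and apoptosis. miR-11 is encoded inside the E2f1 gene itself, which the RefSeq gene table also showed, and belongs to the microRNAs that recognise K boxes, short motifs in the 3′ ends of the Enhancer of split, Bearded and reaper-family transcripts. MicroRNAs act on target mRNAs by blocking translation, by destabilising them, or both, and an mRNA array sees only the mRNA level. Mature miR-11 was not measured here.

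The arrays gave a log2 intensity for 18769 probe sets after the 183 control probe sets were left out. Mean levels of the 12 arrays lay between 5.96 and 6.02. Their upper quartiles ranged more widely, from 7.71 (miR-11 replicate 3) to 8.28 (dE2F1/dDP replicate 1). The part of this spread in small fold changes was not tested. Neither genotype formed a tight group: on the first principal component, which held 63.1% of the variance, the dE2F1/dDP arrays lay at −49.9, −44.7 and 34.4 and the arrays with miR-11 added at −30.1, 1.69 and −19.9. The files do not pair probe sets with genes, so probe sets are given by ID, and genes come from the authors' deposited table of rank product comparisons. That table lists, for 13281 genes, the mean log2 fold change of each genotype against the driver control and the estimated share of false positives at that rank (pfp), and it holds no value per array. A gene is called here where its pfp is under 0.05. The step from dE2F1/dDP to dE2F1/dDP with miR-11 was read as the difference of a gene's 2 log2 fold changes, in which the shared control cancels. That difference has no test per gene and is given as a description.

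Adding miR-11 to dE2F1/dDP changed few probe sets beyond the spread between arrays. In limma's fit with Benjamini-Hochberg adjustment, 6 of 18769 probe sets rose (0.032%) and 1 fell (0.00533%). An unadjusted p of 0.05 was passed by 303, which is 1.61% of those tested. That share is smaller than the 0.05 that evenly spread p-values would give. The low counts therefore do not show that the other probe sets were unchanged. The standard error of the difference had a median of 0.169 and a 95th percentile of 0.547 on the log2 scale. A further set of probe sets differed by size without passing. The difference was at least 1 in 48 probe sets and at most −1 in 37. The 3 arrays of one genotype did not overlap the 3 of the other in 33 of the 48 (0.176% of all probe sets) and in 17 of the 37 (0.0906%). The median standard error in these groups was 0.627 and 0.696. Whatever the size of the difference, 1040 of 18769 probe sets did not overlap, 536 higher and 504 lower. Probe sets picked for a large difference are more apt not to overlap, so the 33 and 17 are not separate evidence.

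The largest called rise was at probe set 1641174_at. Its log2 levels were 8.11, 9.33 and 8.86 with all 3 transgenes, 3.81, 3.66 and 4.26 with dE2F1/dDP, 3.97, 3.95 and 4.27 in the driver control and 8.62, 9.41 and 10.20 with miR-11 alone. The 6 arrays with UAS-miR-11 lay far above the 6 without it, with no overlap. The difference between the dE2F1/dDP groups was 4.85 (SE 0.39, n = 3 and 3), a 28.9-fold higher level, with a limma adjusted p of 0.001205. Probe set 1631549_s_at stood at 8.11, 8.41 and 8.45 with all 3 transgenes, against 4.21, 4.48 and 4.48 with dE2F1/dDP. It read 3.99, 4.52 and 4.55 in the control and 8.41, 8.36 and 7.02 with miR-11 alone, so the arrays again fell apart by the presence of UAS-miR-11. The difference was 3.94 (SE 0.33), or 15.3-fold, with a limma adjusted p of 0.001205. All 6 called rises were also called higher in miR-11 alone against control, where 18 of 18769 probe sets were called higher.

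The single called fall had the opposite arrangement. Probe set 1628052_at read 7.59, 7.99 and 8.01 in the dE2F1/dDP discs and 3.63, 3.72 and 3.70 once miR-11 was added. In the driver control it read 3.95, 3.48 and 3.89, and with miR-11 alone 3.44, 3.76 and 4.05. Only the 3 dE2F1/dDP arrays were high, and the other 9 overlapped one another. The fall was 4.18 log2 units in size (difference −4.18, SE 0.18, adjusted p = 9.646e-06 by limma), an 18.1-fold lower level. It was the only one of the 7 called probe sets at which the miR-11 effect also differed from its effect without dE2F1/dDP, by −4.16 (SE 0.26, adjusted p = 0.000154 for the interaction in limma). The interaction passed at 9 probe sets in all (0.048%). A smaller case of this arrangement lay just outside the threshold. Probe set 1637046_at read 5.21, 5.29 and 4.72 with dE2F1/dDP and 4.07, 3.88 and 4.02 with miR-11 added, a difference of −1.08 (SE 0.15) with a limma adjusted p of 0.0584. The low levels of these 4 probe sets lay under the median of the arrays, those of 1641174_at, 1628052_at and 1637046_at near the lower quartile of 3.75 to 3.97, so their folds may be smaller than the true ratios. Although the files do not name probe sets, the 3 group differences of 1628052_at are within 0.01 of those the authors' deposited table lists for Cyp6a17, and those of 1631549_s_at of those for CG18278. The values listed for CG9150, Cyp6a13 and CG7722 likewise lie within 0.01 of those of other called rises. The values of all these genes below may therefore be the same measurement as a called probe set and are not separate evidence.

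**Figure D1:**
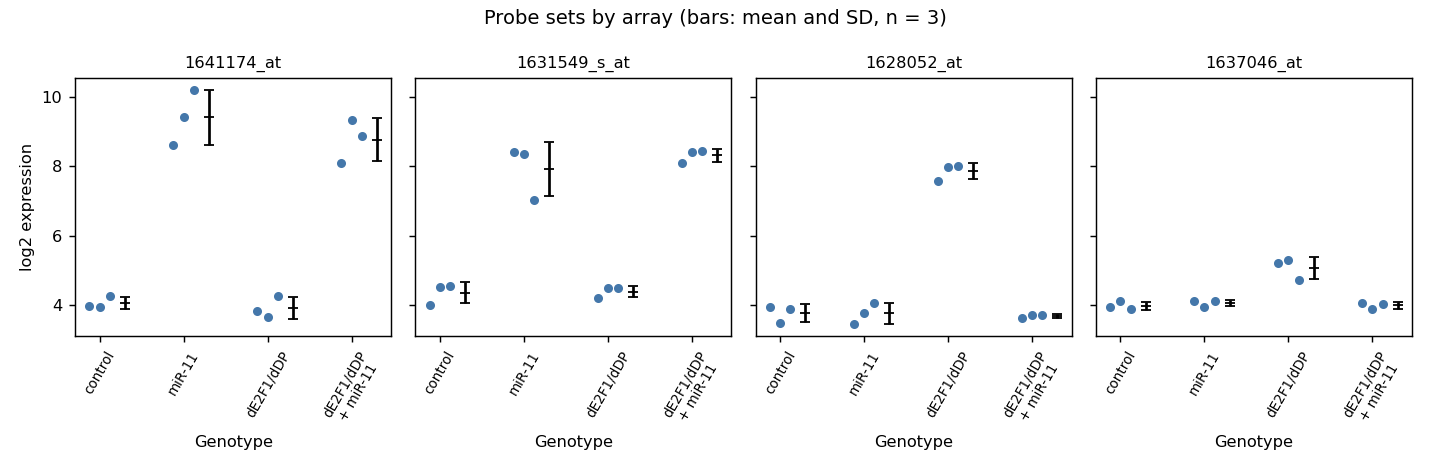
Log2 level of 4 probe sets on each of the 12 arrays (vertical), by genotype (horizontal), with a point per array and bars for the mean and SD of 3 arrays. At 1641174_at and 1631549_s_at the 6 arrays with UAS-miR-11 are high, and at 1628052_at only the 3 dE2F1/dDP arrays are, at 7.59 to 8.01.

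Against the driver control, dE2F1/dDP changed 12 probe sets in limma (0.0639%), 6 higher and 6 lower. Of these 12, 1 was called the opposite way when miR-11 was added, and the other 11 were not called in either direction.

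At the level of genes, the question was how much of the dE2F1/dDP response was still seen with miR-11 present. In the authors' deposited table, 18 genes were called higher with dE2F1/dDP (0.136% of 13281) and 28 lower (0.211%). For the 3-transgene discs 31 were called higher (0.233%) and 82 lower (0.617%). A response was counted as left where the value with miR-11 was between 0.67 and 1.5 times the value without it, as damped where it was below 0.67 times and kept its sign, and as reversed where the sign changed. Of the 46 called genes, 33 were left, 7 were damped, 6 were reversed and 0 were strengthened. The lower genes were left in 23 of 28 cases and damped in 5. The higher genes were left in 10 of 18 cases, damped in 2 and reversed in 6. The median ratio was 0.87 for the lower genes and 0.67 for the higher. Both values are set against the same 3 control arrays, and the genes were chosen by a high value without miR-11, a choice that by itself favours a smaller second value. Chosen instead by the 3-transgene discs, 113 genes gave 57 left, 3 damped, 12 reversed and 41 strengthened, which means larger with miR-11 present. In both choices a change of sign counted as reversed even where a value lay near control. Examples are Cyp6a17, at −0.09 with miR-11, and CG18410, at −0.02 without it. Read against miR-11 alone in place of the control, which shares no array with the first value, the 46 genes gave 12 left, 22 damped, 9 reversed and 3 strengthened.

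**Figure D2:**
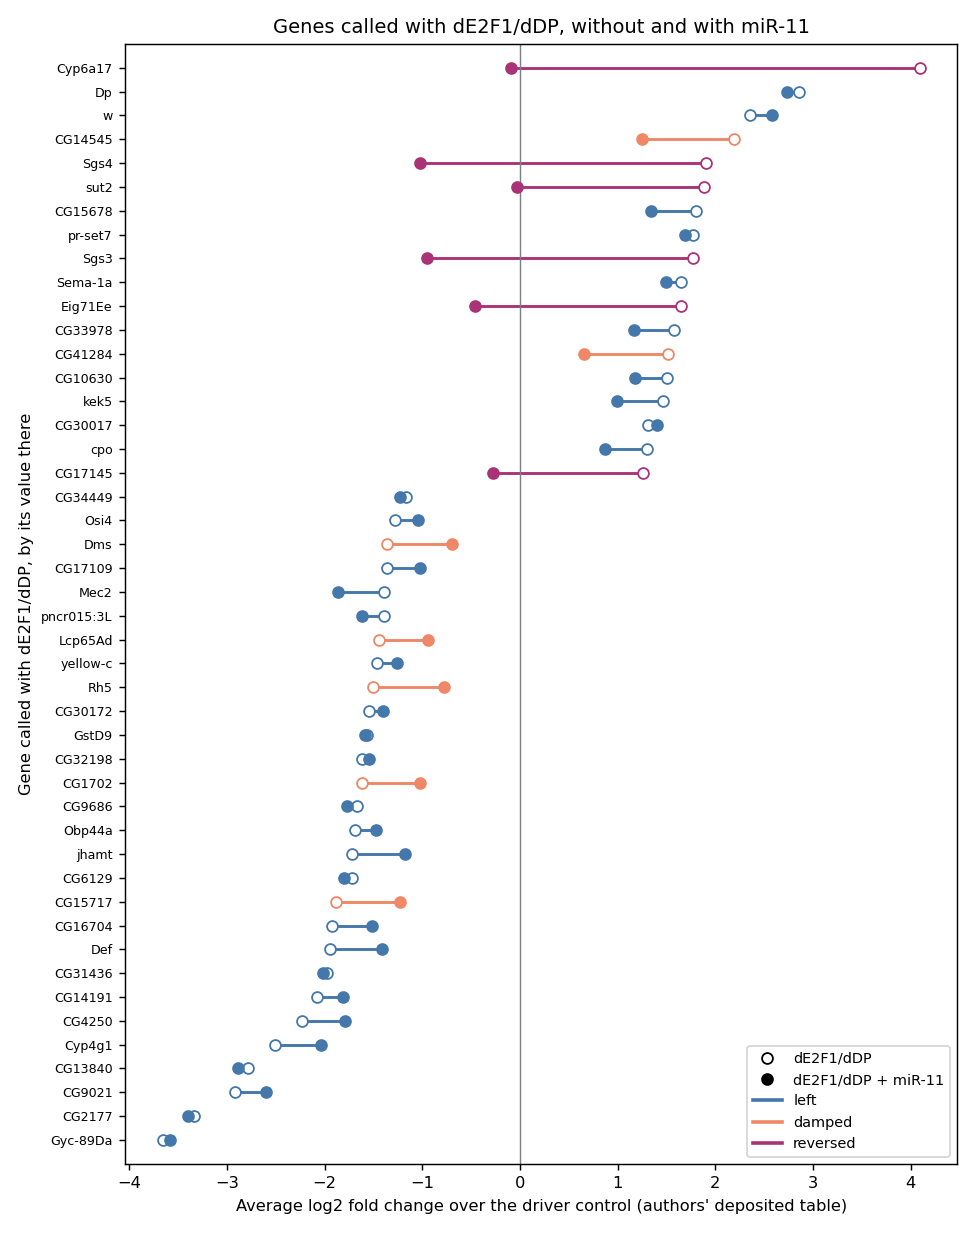
Average log2 fold change over the driver control (horizontal) of the 46 genes called with dE2F1/dDP in the authors' deposited table (1 per line), with open circles for dE2F1/dDP, filled circles for dE2F1/dDP with miR-11 and colour for the class. The circles lie close together for most of the 33 genes counted as left, and the 6 reversed genes have their filled circle below zero.

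Among the genes called higher and left, Dp, which encodes dDP and is one of the transgenes, served as a check: its log2 fold change in the authors' deposited table was 2.85 without miR-11 and 2.73 with it. The dE2F1 transgene could not be followed as clearly, since E2f read 0.34 and 0.33 in the authors' deposited table. The gene white (w), an eye pigment transporter carried as a marker on many transgenes, read 2.35 and 2.58 in the authors' deposited table and 1.19 with miR-11 alone. CG15678 read 1.80 and 1.34 in the authors' deposited table, and 1.89 with miR-11 alone. pr-set7, a histone H4 methyltransferase, stood at 1.77 and 1.69 in the authors' deposited table. Sema-1a, a transmembrane semaphorin of axon guidance, gave 1.65 and 1.49 in the authors' deposited table. CG30017, CG33978 and CG10630, together with cpo and kek5, made up the rest of the 10 genes.

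Of the lower genes that were left, Gyc-89Da, a soluble guanylyl cyclase subunit, had the values −3.65 and −3.58 in the authors' deposited table, and −3.63 with miR-11 alone. CG2177 was at −3.34, −3.39 and −3.37 in the same order of the authors' deposited table. These genes were as low in every genotype with a UAS transgene. Other genes had no such value with miR-11 alone. CG13840 was at −2.78 without and −2.88 with miR-11 in dE2F1/dDP discs, and 0.16 with miR-11 alone, in the authors' deposited table. CG9021 gave −2.92, −2.60 and −0.55 in the authors' deposited table. The other lower genes counted as left were smaller. Cyp4g1, a P450 of cuticular hydrocarbon synthesis, stood at −2.04 with all 3 transgenes and −1.96 with miR-11 alone in the authors' deposited table. The class also held the defensin gene Def, at −1.94 and −1.41, and jhamt, an enzyme of juvenile hormone synthesis, at −1.72 and −1.18, in the authors' deposited table. Across the 46 genes, the value of miR-11 alone reached at least 50% of the dE2F1/dDP value in 21, and 12 of those were called the same way in miR-11 alone. Among the other 25 genes, 17 were left, 6 damped and 2 reversed. The values of dE2F1/dDP and of miR-11 alone are set against the same 3 control arrays. A gene that stood apart in those control arrays alone would therefore be counted among the 21. Over all 13281 genes, 41 were called higher and 19 lower with miR-11 alone.

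The 2 reversed genes without a response to miR-11 alone were Cyp6a17 and sut2, both on chromosome arm 2R. Cyp6a17, a cytochrome P450 known for its role in temperature preference, stood at 4.09 with dE2F1/dDP, −0.09 with miR-11 added and −0.02 with miR-11 alone in the authors' deposited table. sut2, a sugar transporter, stood at 1.89, −0.03 and −0.05 in the authors' deposited table. Whether the chromosome that carried UAS-miR-11, and not miR-11 itself, set these values was not tested. Both genes were at the control level once miR-11 was present. Their genomic neighbours did not share this: Cyp6a22 and Cyp6a23, either side of Cyp6a17, differed by −0.09 and −0.07 between the dE2F1/dDP groups in the authors' deposited table, and sut1 and sut3, either side of sut2, by 0.16 and −0.07. The remaining reversed genes were Sgs4, Sgs3, Eig71Ee and CG17145, of which the first 3 belong to the salivary gland glue list, described below. CG17145 read 1.26 without miR-11, −0.28 with it and 1.98 with miR-11 alone in the authors' deposited table.

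The damped genes were smaller changes. CG14545 had the log2 fold changes 2.19 and 1.25 in the authors' deposited table, and CG41284 had 1.51 and 0.66. The lower damped genes included Dms, the neuropeptide myosuppressin, at −1.36 and −0.70 in the authors' deposited table. Rh5, a photoreceptor opsin, was at −1.50 and −0.78 in the authors' deposited table. CG15717 stood at −1.88 and −1.23, and CG1702 at −1.62 and −1.02, in the authors' deposited table. CG15717 and the larval cuticle gene Lcp65Ad, both with a ratio of 0.653, lay just inside the damped class. cpo, an RNA-binding protein, and kek5, a transmembrane protein, lay just outside it, the second with a ratio of 0.677.

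**Figure D3:**
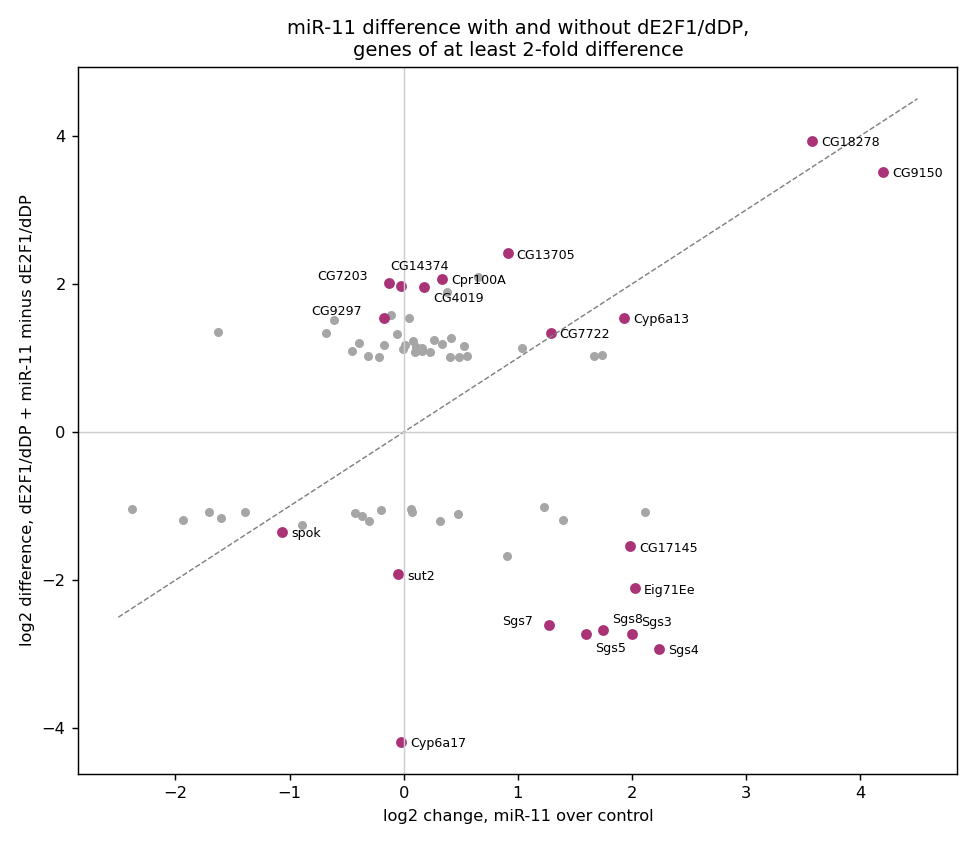
Log2 change with miR-11 over the driver control (horizontal) and log2 difference between dE2F1/dDP discs with and without miR-11 (vertical), for the 41 and 28 genes whose difference was at least 1 in size in the authors' deposited table. The dashed line marks equal values and named genes are coloured. CG18278 and CG9150 are high on both axes, the Sgs genes lie right of and below zero, and Cyp6a17 lies at −4.18 on the vertical axis and near 0 on the horizontal.

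Over all genes, 41 differed by at least 1 between the dE2F1/dDP groups (0.309%) and 28 by at most −1 (0.211%). At 0.5, the counts were 228 (1.72%) and 144 (1.08%). Among called genes, the 2 with the largest positive differences had values as large with miR-11 alone. CG18278 had a log2 fold change against control of 0.04 with dE2F1/dDP, 3.97 with miR-11 added and 3.58 with miR-11 alone in the authors' deposited table. CG9150 had −0.06, 3.46 and 4.20 in the authors' deposited table. Its neighbour CG9147 was also higher with miR-11, by 0.96 in dE2F1/dDP discs and 0.90 alone in the authors' deposited table, whereas CG33470 next to CG18278 differed by 0.12.

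CG13705 differed by 2.41 between the dE2F1/dDP groups in the authors' deposited table and by 0.91 with miR-11 alone. Cyp6a13, another cytochrome P450, differed by 1.54 and 1.93 in the authors' deposited table. CG7722, the serpin Spn47C, differed by 1.34 and 1.29 in the authors' deposited table. For these 3 the sign was the same in both backgrounds. For others the value with miR-11 alone was small. Cpr100A, a cuticle protein, differed by 2.07 in dE2F1/dDP discs and 0.33 alone in the authors' deposited table. The differences of CG7203 were 2.01 and −0.13, and those of CG14374 were 1.97 and −0.02, in the authors' deposited table. CG4019, the aquaporin family member Eglp4, gave 1.96 and 0.18 in the authors' deposited table. CG9297 gave 1.53 and −0.18 in the authors' deposited table. CG7203, CG14374 and CG4019 were below control without miR-11, at −0.66, −0.61 and −0.68 in the authors' deposited table.

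Over the 41 genes, the effect of miR-11 alone had the same sign and a size of at least 0.5 in 11, the opposite sign at that size in 3, and a smaller size in 27. Over the 28 genes on the lower side, these counts were 7, 11 and 10. The dE2F1/dDP value itself lay on the opposite side of control by at least 0.5 in 20 of the 41 and 16 of the 28. That value is subtracted in the difference by which these genes were chosen. The choice by itself favours such values, so these 2 counts are not evidence of a countered response. Across all 13281 genes the effect of miR-11 in dE2F1/dDP discs and its effect alone, which share no array, had a Pearson correlation of 0.08 and a Spearman correlation of 0.06. The effect of dE2F1/dDP with miR-11 present and without it, also from separate arrays, correlated at 0.59 and 0.64. On the first principal component, group means were 12.9 (control), 23.3 (miR-11 alone), −20.1 (dE2F1/dDP) and −16.1 (all 3 transgenes). Within groups its SD was 16.2 to 58.7. Both effects of dE2F1/dDP run along this component, and its part in the 2 pairs of correlations was not tested. These are descriptions across genes, which are not independent replicates.

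The cell cycle targets of E2F were followed as 5 lists. The lists of E2F, DP, Rb and dREAM subunits, G1/S regulators, replication factors, G2/M genes and repair genes held 115 distinct genes together. Every one of the 115 lay within 0.5 of its dE2F1/dDP value when miR-11 was added, from −0.33 to 0.41 in the authors' deposited table, with a median of 0.02. Over all genes, 12909 of 13281 lay within 0.5 and the median was −0.003. The median fold change against control of the 115 genes was 0.29 both without and with miR-11 in the authors' deposited table. The table carries no error and the files name no probe set for a gene, so these differences were not set against the spread between replicates. Over all genes, the median fold change against control was −0.03 in both genotypes. Over the eye genes described below, it was 0.40 without and 0.29 with miR-11. Of the 115 genes, only Dp, a transgene, was called with or without miR-11.

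CycE, the cyclin that starts S phase, read 0.99 without and 1.04 with miR-11 in the authors' deposited table. Mcm10, a replication initiation factor, read 1.21 and 1.06 in the authors' deposited table. The ribonucleotide reductase subunits RnrL and RnrS, which make deoxynucleotides, read 0.61 and 0.64 without miR-11 and 0.82 and 0.49 with it in the authors' deposited table. All 4 lay above control in both genotypes. Orc1, of the origin recognition complex, read 0.62 and 0.67, and dup, the Cdt1 licensing factor, read 0.62 and 0.70, in the authors' deposited table. mus209, the sliding clamp PCNA, read 0.37 and 0.43 in the authors' deposited table. Among repair genes, RecQ5, a helicase, read 0.96 and 0.97 in the authors' deposited table. Within the other lists, the ends were Rbf2 (0.11) and Myb (−0.16) among the E2F and Rb complex genes, and stg (0.28), the Cdc25 phosphatase, and the kinase gene cdc2c (−0.25) among the G1/S genes, in the authors' deposited table. Orc2 (0.24) and chif (−0.32), the Dbf4 homologue, were the ends of the replication list and Klp10A (−0.32), a kinesin, the low end of the G2/M list in the authors' deposited table. The ends over all 5 lists were XRCC1, a single-strand break repair scaffold, at a difference of 0.41 and mus308, a DNA polymerase of end joining, at −0.33 in the authors' deposited table.

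Against the control, miR-11 alone had negative medians in each of these lists, from −0.27 for the G2/M genes to −0.14 for the G1/S and replication genes, in the authors' deposited table. The 3-transgene discs set against miR-11 alone gave a median of 0.52 for the E2F, DP and Rb genes and 0.49 for the replication genes in the authors' deposited table. The same discs set against the driver control gave 0.33 and 0.28. For all 13281 genes, the median was −0.03 with miR-11 alone against control. It was −0.01 for the 3-transgene discs against miR-11 alone.

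The death genes near reaper, which are candidates for regulation through K boxes, were next. In the authors' deposited table rpr differed by −0.04 between the dE2F1/dDP groups, skl by 0.01, grim by 0.13 and W, the gene also called hid, by −0.28. W read 0.33 without miR-11 and 0.05 with it in the authors' deposited table. The list median was −0.01. Of 18 caspases, adaptors and inhibitors, 6 differences were positive and 12 negative, with a median of −0.06. The highest was that of the caspase gene Damm, at 0.13 in the authors' deposited table. The lowest was that of egr, the Drosophila TNF ligand, which read 0.71 without miR-11 and −0.09 with it in the authors' deposited table, a difference of −0.80. Among 11 genes of the JNK pathway, on which egr acts, 3 differences were positive and 8 negative with a median of −0.09. puc, the JNK phosphatase that reports pathway activity, read 0.77 and 0.68 in the authors' deposited table. Gadd45, a stress gene, differed by −0.48 in the authors' deposited table.

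The 17 genes of the Enhancer of split and Bearded complexes and their partners, Notch pathway genes in which K boxes were described, gave 9 positive and 8 negative differences, a median of 0.01 and a range from −0.20 for m4 to 0.18 for m6 in the authors' deposited table. Among all genes, 10% lay under −0.20 and 10% above 0.19. The 9 genes of microRNA processing and silencing had a median of 0.02, with Ranbp21, an exportin, at 0.42 and gw, the silencing factor GW182, at −0.25 in the authors' deposited table.

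Eye genes also differed little, as did most genes. Of 54 distinct genes of retinal determination, photoreceptors, cone cells and the antennal disc, 53 lay within 0.5. Over all genes, 12909 of 13281 did, so this count is not particular to eye genes. The medians were −0.09 for the 18 retinal determination genes, −0.02 for the 20 photoreceptor genes, −0.03 for the 9 cone cell genes and −0.06 for the 12 antennal genes in the authors' deposited table. Within the lists, eyg was lowest at −0.32 and hh highest at 0.17 for retinal determination, ct was lowest at −0.37 for cone and antennal genes, with B-H1 highest at 0.17 and ss at 0.15, and Fas2 was lowest at −0.36 for photoreceptors, in the authors' deposited table. The exception was nrm, a cell adhesion gene, at 0.55 in the authors' deposited table. dpp, the BMP ligand expressed at the furrow, read 0.76 and 0.73 in the authors' deposited table. Levels of eye markers could not be checked against other tissues, since the table holds fold changes only.

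**Figure D4:**
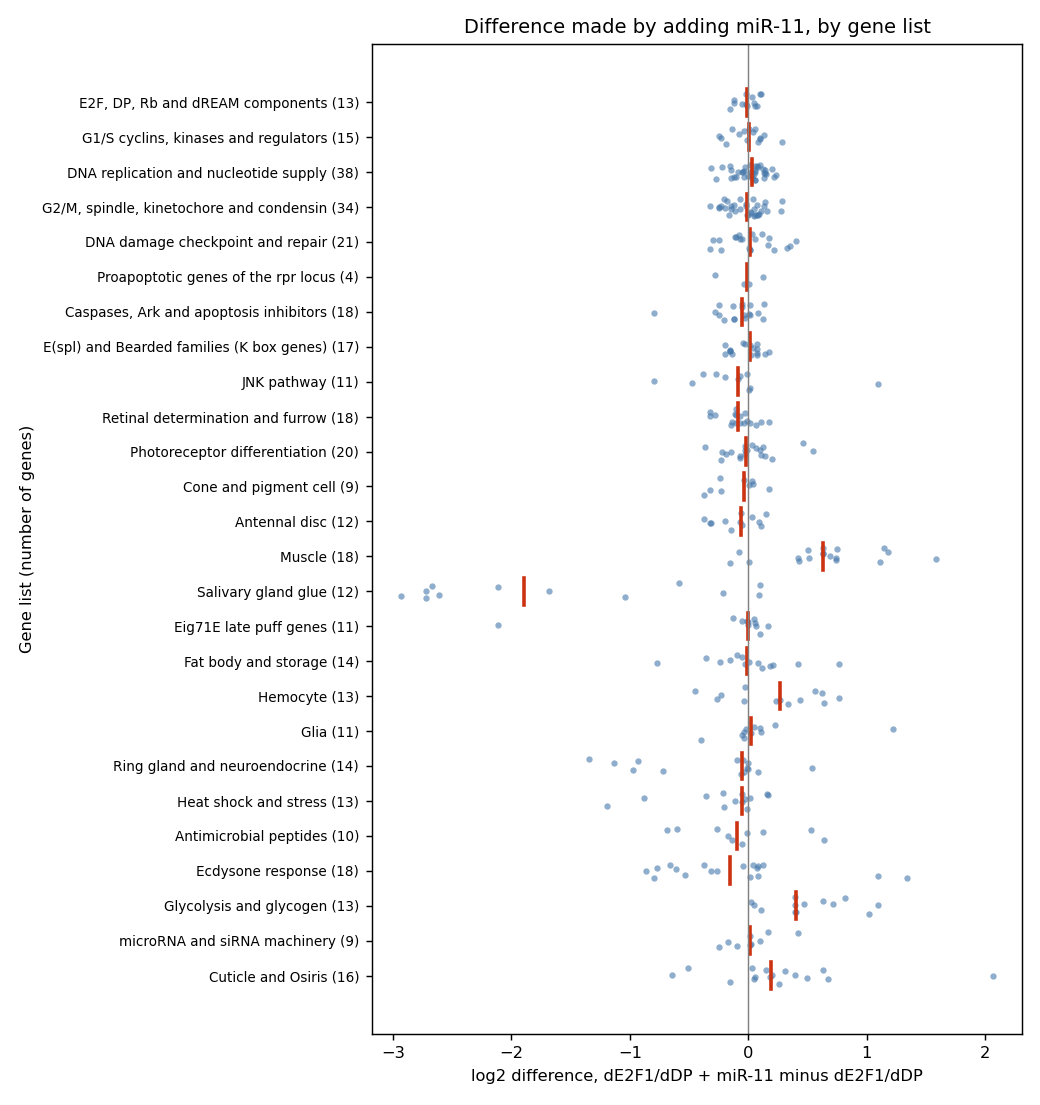
Log2 difference between dE2F1/dDP discs with and without miR-11 (horizontal) for each gene of the 26 lists (vertical) in the authors' deposited table, with a point per gene and a red bar for the list median. The 5 cell cycle lists sit within 0.5 of zero, the glue genes have a median of −1.90 and the muscle genes one of 0.63.

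Among the lists, the larger differences lay in genes of other tissues, some of which neighbour the eye disc. In bulk samples, fewer cells of a type and less RNA per cell cannot be told apart. The salivary gland glue genes, which encode the secreted proteins that fix the pupa to its substrate, gave 10 negative and 2 positive differences among 12 genes, 8 of them at most −1, with a median of −1.90 in the authors' deposited table. Sgs4 read 1.91 with dE2F1/dDP and −1.02 with miR-11 added, and Sgs3 read 1.77 and −0.95, in the authors' deposited table. Sgs5 read 1.20 and −1.52, Sgs8 0.85 and −1.82, and Sgs7 0.86 and −1.75, in the authors' deposited table. In the authors' deposited table, 3 glue genes were called higher with dE2F1/dDP and 6 were called lower in the 3-transgene discs. Over all 13281 genes these calls numbered 18 and 82.

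Not all members followed the Sgs genes. Pig1, ng3 and ng1 were below control already with dE2F1/dDP, at −1.59, −1.35 and −0.79, and read −1.50, −1.93 and −1.84 with miR-11 added, in the authors' deposited table. These 3 were among the 6 called lower. ng4 and Pig1 had the positive differences, 0.10 and 0.09. With miR-11 alone 3 members of the list were called higher, beside 41 of all 13281 genes. The list median was 1.44 with miR-11 alone in the authors' deposited table. Sgs4 was at 2.23 and Eig71Ee at 2.03 with miR-11 alone in the authors' deposited table. The order of the group medians was thus miR-11 alone, then dE2F1/dDP at 0.86, then control at 0, then the 3-transgene discs at −1.26. Sgs3, Sgs7 and Sgs8 are neighbours in the gene table and are not independent of each other. Eig71Ee, an ecdysone-regulated salivary gland gene, read 1.65 without miR-11 and −0.46 with it in the authors' deposited table, while the median of the 11 Eig71E genes was 0.00. Since the files name no probe set for a gene, these levels were not followed array by array. The part of carried-over salivary gland in these differences was not tested. Without the glue list, the reversed count was 3 of 43.

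The muscle list went the other way: 16 of 18 differences were positive, 13 were at least 0.5 and the median was 0.63, in the authors' deposited table. Mhc, the muscle myosin heavy chain, read 0.19 without miR-11 and 1.33 with it in the authors' deposited table. Prm, paramyosin, read 0.24 and 1.36, and Unc-89, the Drosophila obscurin, differed by 1.58, in the authors' deposited table. The lowest muscle difference was −0.16, for the troponin C gene TpnC41C, in the authors' deposited table. With miR-11 alone the muscle median was 0.13. All 13 glycolysis genes had a positive difference, with a median of 0.40 in the authors' deposited table. ImpL3, lactate dehydrogenase, read 0.04 and 1.14, and GlyP, glycogen phosphorylase, read 0.32 and 1.34, in the authors' deposited table. The lowest was Gapdh2 with a difference of 0.02. Ald, aldolase, read 0.10 and 0.92 in the authors' deposited table. The glycolysis and muscle values were higher in the same genotype, and the part of muscle cells in the glycolysis values was not tested.

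**Figure D5:**
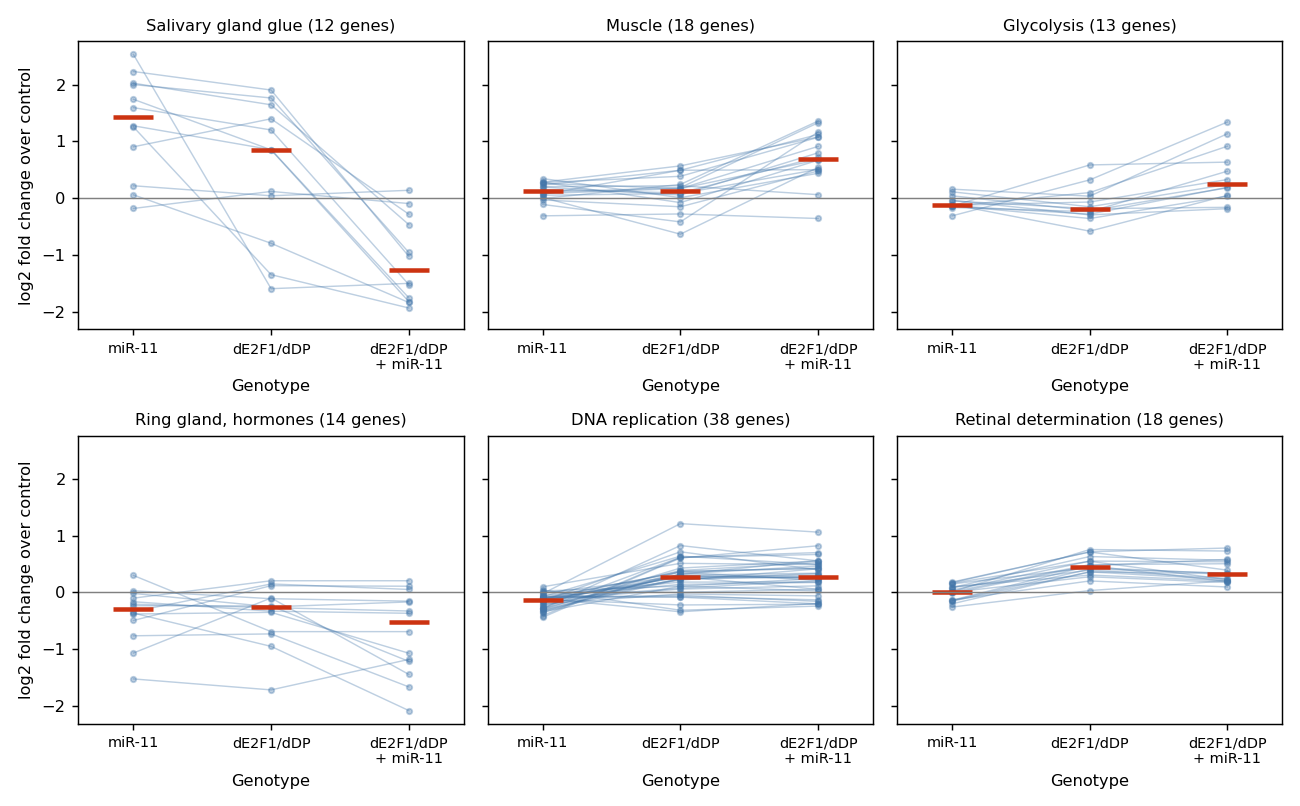
Log2 fold change over the driver control (vertical) in the other 3 genotypes (horizontal) for genes of 6 lists in the authors' deposited table, with a line per gene and a red bar for the list median. The glue median is 1.44 with miR-11 alone, 0.86 with dE2F1/dDP and −1.26 with all 3 transgenes, and the muscle median is 0.13, 0.13 and 0.70.

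Some genes of the ring gland, which makes ecdysone and juvenile hormone, were lower in the 3-transgene discs. Of the 14 listed, 10 differences were negative and 5 at most −0.5, jhamt was highest at 0.54, and the median was −0.05 in the authors' deposited table. Other ecdysone enzymes of the list differed little, dib by −0.04 and spo by 0.00, as did the hormone genes Eh (−0.06), Crz (−0.04) and Ptth (0.09), in the authors' deposited table. phm and sad, ecdysone synthesis enzymes, read −0.73 and −0.35 without miR-11 and −1.66 and −1.07 with it in the authors' deposited table. Akh, the adipokinetic hormone of the same organ, read −0.95 and −2.08 in the authors' deposited table. spok, another ecdysone synthesis enzyme, read −0.10 and −1.44 in the authors' deposited table, and −1.07 with miR-11 alone. The enzymes phm, sad and spok, together with Akh and jhamt, made up the 5 genes of this list called lower with all 3 transgenes. Over all 13281 genes, 82 were called lower there.

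Ecdysone response genes had a median difference of −0.15 over 18 genes in the authors' deposited table, with 6 at most −0.5 and 2 at least 0.5. The nuclear receptors Hr39, Eip78C and Eip75B read 0.57, 0.58 and 0.47 without miR-11 and −0.29, −0.18 and −0.20 with it in the authors' deposited table. With miR-11 alone they stood at −0.28, −0.15 and −0.18. Eip74EF, an ETS factor, read 0.53 and −0.26, and br, the Broad complex, 1.04 and 0.43, in the authors' deposited table. ImpL1 and ImpL3 were higher instead, with ImpL1 at −0.53 and 0.81 in the authors' deposited table. The stage of the larvae within that instar is not given in the labels, and its part in the ecdysone, glue and cuticle values was not tested. Cuticle genes had 13 of 16 positive differences and a median of 0.19, with Cpr78E at −0.65, in the authors' deposited table.

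Further lists differed less as groups. Blood cell genes had 8 positive and 5 negative differences with a median of 0.27. nimC1, a phagocytosis receptor, read 0.69 and 1.31, and 1.54 with miR-11 alone, in the authors' deposited table. The ends of the list were Nplp2 at 0.77 and srp, the blood cell GATA factor, at −0.45 in the authors' deposited table. Fat body genes had 7 of each sign and a median of −0.01, with Fbp2 at 0.76 and Lsp1gamma, a larval storage protein, at −0.77, in the authors' deposited table. Glial genes had a median of 0.03, with CG30035 at 1.22 and pnt, an ETS factor, at −0.40, in the authors' deposited table. Heat shock genes had a median of −0.06, and Hsp83 was highest at 0.16, in the authors' deposited table. Hsp70Ba read −0.53 without miR-11 and −1.72 with it in the authors' deposited table, and Hsp70Aa −0.38 and −1.25, where these near-identical copies can share probes. With miR-11 alone they were lower still, at −1.93 and −1.57. Antimicrobial peptide genes had a median of −0.10, from −0.69 for CecB to 0.64 for Drs, in the authors' deposited table.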

How the data were processed

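RNA of the 12 eye disc samples was measured on Affymetrix arrays. The deposited series table holds log2 intensities per probe set. Of the tools, the submitters' processing notes name affy alone, with no version, and how it was run is not given in the sources here. The authors' deposited gene table holds, per the file headers, mean log2 fold changes, p-values and a score per gene, the estimated share of false positives (pfp), from a rank product analysis by the authors. For 301 genes with a fold change of at least 1 log2 unit, a probe set of the series table with the same 3 group differences within 0.01 was found in every case.

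Probe sets were tested in R 4.3.3 with limma 3.58.1 (lmFit and eBayes over all 12 arrays, 4 group means, Benjamini-Hochberg adjustment, threshold 0.05). The script was tested on simulated data first. No filter on level was applied. Precision is limited by having 3 arrays per genotype. The interaction is the miR-11 effect with dE2F1/dDP minus that without. Genes are named by size of the difference between the dE2F1/dDP groups (the 10 largest in each direction among genes called with dE2F1/dDP or with all 3 transgenes), by class of response, and as the highest and lowest member of each list with a few textbook members. Probe sets shown are the 2 largest called rises and the called fall. Probe set 1637046_at, with the smallest p among falls that were not called, was added after its values were seen. The members and lists were chosen with earlier results of these data known, and support nothing by themselves. RefSeq (Release 6 plus ISO1 MT) gave names and neighbours only, and 12433 genes of the table matched. Of 430 list entries, 405 matched. No miRNA, promoter or protein sequence was used here. Alternatives covered the fit, the scaling, the level filter, the threshold, a replicate block, each array left out and the reading of the responses.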

Additional observations from a re-analysis of the deposited data

Results flagged for a closer look

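At probe set 1628052_at the effect of miR-11 differed between the backgrounds with and without dE2F1/dDP, by a test of that difference itself: the interaction was −4.16 on the log2 scale (limma, adjusted p = 0.000154). Without dE2F1/dDP the log2 level was 3.75 ± 0.30 with miR-11 and 3.77 ± 0.26 in the driver control (SD, n = 3 each). With dE2F1/dDP it was 3.68 ± 0.05 with miR-11 and 7.86 ± 0.24 without it.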

How the results depend on the processing

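The 7 probe sets called between the dE2F1/dDP groups became 4 when only those 6 arrays entered the fit, and 4 to 7 when an array was left out (4 without replicate 1 or replicate 3 of the 3-transgene discs). dE2F1/dDP against control gave 12 calls, 4 on its own arrays, 7 with the replicate block, 19 at an adjusted p of 0.1 and 5 to 19 without an array. miR-11 against control gave 29, 10 on its own arrays and 14 to 45 without an array (45 without miR-11 replicate 1, 14 without control replicate 3). All 3 transgenes against control gave 17, and 9 to 18 without an array. The interaction gave 9, 5 above the median level and 7 to 16 without an array (16 without miR-11 replicate 1). With the replicate block 7 probe sets were called between the dE2F1/dDP groups. Same-numbered arrays of these groups correlated at 0.575, −0.431 and −0.121, and 6 of 18 same-number pairs exceeded 0.1, so the numbers were not taken as pairing. The difference of 1641174_at ranged from 4.57 to 5.18 and that of 1628052_at from −4.32 to −4.11 without an array. The adjusted p of 1637046_at was 0.0284 with a trended, robust variance, 0.330 after quantile normalization, 0.222 with the replicate block, 0.99998 on the compared arrays only, and from 0.00725 (without dE2F1/dDP replicate 3) to 0.436 without an array. Responses counted as left were 33, and 12 read against miR-11 alone, 57 chosen by the 3-transgene discs and 51 at a pfp of 0.1. The damped were 7, and 22, 3 and 17 in that order, and 1 with limits of 0.5 and 2. The reversed were 6, 12 chosen by the 3-transgene discs and 3 without the glue genes. The readings against miR-11 alone and without glue genes were chosen after seeing the data. List medians from the arrays and promoter motifs were not run.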
